A study of Mus musculus with 23 samples.

Results

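The genes examined here were 10 genes of long-chain fatty acid handling in the mouse colonic epithelium. They were chosen by name among 24917 gene loci and not by their values, though with earlier results of these data known. They encode 4 proteins of uptake at the cell membrane (Cd36, Slc27a1, Slc27a2 and Slc27a4), 4 cytoplasmic fatty acid binding proteins (Fabp1, Fabp2, Fabp4 and Fabp5) and the 2 enzymes that join the last acyl chain to a triglyceride (Dgat1 and Dgat2). RNA was sequenced from 23 samples of male C57BL/6 mice (C57BL/6J in the study's methods) that entered their diets at 6 weeks of age and stayed on them for 43 weeks. LF mice ate a diet with 10% fat throughout, HF mice a diet with 60% fat throughout, and HFLF mice ate the 60% diet in the first 15 weeks and the 10% diet in the other 28. The labels place 4 LF, 3 HF and 4 HFLF samples in batch 1 and 4 LF, 3 HF and 5 HFLF samples in batch 2. All mice shared strain, sex and age, and no group was genetically modified. The epithelium was released from the entire colon with EDTA, so each library mixed proximal and distal crypts. Since the study's methods count 5 mice for each regimen and the labels list 8 LF, 6 HF and 9 HFLF samples, some samples may share a mouse.

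Long-chain fatty acids enter an absorptive cell by diffusion and with the help of membrane proteins such as CD36 and the fatty acid transport proteins of the Slc27 family, several of which also attach coenzyme A to the acyl chain. Inside the cell, fatty acid binding proteins hold these poorly soluble lipids and carry them between membranes. DGAT1 and DGAT2 then complete triglyceride, which is stored in droplets or, in the small intestine, exported in chylomicrons. Most dietary fat is absorbed before the colon, whose epithelium draws much of its energy from short-chain fatty acids.

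The transcripts of this machinery were present at very unequal levels, and few of them differed with diet. Dgat2 was the member with the clearest difference. In batch 2 its mean level was 96.4 CPM (counts relative to the scaled total of the library) in HF mice and 62.7 CPM in LF mice, and in HFLF mice it was 62.7 CPM. The difference of Dgat2 between HF and LF of that batch was called, as were 7.44% of all genes. It stayed called in 7 of 12 fits leaving out 1 library. In batch 1 the Dgat2 means were 97.8 CPM in HF and 86.2 CPM in LF mice, and it was not called. In batch 2 Fabp1, too, was higher on the HF than on the LF diet, at a level of only 5 to 32 counts per library. Most fits leaving out 1 library did not keep the call of Fabp1. The other 7 members that could be tested did not pass the thresholds in any comparison, and Fabp4 was too low to test.

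Promoter sequences (300 bases spanning the transcription start, RefSeq, build GRCm38.p6) were given for 6 members, and Fabp4, Fabp5, Dgat1 and Dgat2 had none. Those of Fabp1 and Fabp2 are shown because the first was called between diets and the second was the highest of the members. Capitals mark the motif AGGTCA, to which many nuclear receptors bind, on either strand (TGACCT when read on the other strand), and the TATA box TATAAA, searched on both strands.
Fabp1 promoter, chr6:71199629-71199928, plus strand: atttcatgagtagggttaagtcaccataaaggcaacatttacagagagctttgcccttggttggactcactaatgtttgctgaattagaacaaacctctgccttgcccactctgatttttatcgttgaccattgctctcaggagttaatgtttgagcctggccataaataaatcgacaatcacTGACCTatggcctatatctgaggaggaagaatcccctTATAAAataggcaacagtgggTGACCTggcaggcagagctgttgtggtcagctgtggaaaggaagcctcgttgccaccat
Fabp2 promoter, chr3:122894822-122895121, plus strand: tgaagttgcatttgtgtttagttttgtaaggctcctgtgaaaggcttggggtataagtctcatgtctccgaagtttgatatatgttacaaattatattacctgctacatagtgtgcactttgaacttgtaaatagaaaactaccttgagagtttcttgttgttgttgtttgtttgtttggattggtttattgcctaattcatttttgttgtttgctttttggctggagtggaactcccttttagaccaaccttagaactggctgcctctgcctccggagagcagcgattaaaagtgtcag
The Fabp1 window held 2 AGGTCA motifs, both read as TGACCT, and 1 TATAAA. Neither motif occurred in the Fabp2 window. Of 32851 mouse promoters of this length, 16.3% held AGGTCA on either strand and 13.6% held TATAAA. Among the other members with a promoter, the windows of Slc27a2 and Cd36 held 1 AGGTCA each. Slc27a1 had several windows, and neither these nor that of Slc27a4 held any. The Cd36 window, chr5:17835847-17836146 on the minus strand, lies inside the Cd36 locus and away from its upstream end at 17888959. A window at that end was not given. An exact direct repeat of AGGTCA with 1 base between the copies was in no window of a member and in 0.0396% of all promoters. Repeats with a mismatch in either copy were not searched for, so their presence in these windows was not tested. A match of letters in a promoter is a description and shows no binding.

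Between 29189922 and 65320947 counts fell on genes in each library, so that 3 counts of a gene correspond to between 0.0453 and 0.104 CPM. Markers of the epithelium were abundant, with a median of 1830 CPM for Epcam and 5690 CPM for Krt8. Of 10 adipocyte markers, Adipoq, Lep, Cfd, Plin1, Retn, Thrsp and Aqp7 were each at 0 in 13 to 20 of the 23 libraries, and Cidec, Lipe and Adig at 0 in none, with medians of 7.98, 12.7 and 0.277 CPM. Of 10 endothelial markers, Gpihbp1 and Emcn were at 0 in 17 and 13 libraries, while Pecam1, with a median of 5.61 CPM, and Esam, with 1.77 CPM, were at 0 in none. In batch 1 the library HF replicate 3 stood apart from the rest, at 69.3 on the first principal component of log2 CPM. The others of that batch lay between −27 and 12.6. In batch 2 the library HF replicate 2 was farthest out, at 45.6, with the others between −27.3 and 18.7. Calls of members that rest on these libraries are given with and without them.

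Levels between genes can be compared only per length, and are given here as CPM per kb of the principal transcript. Fabp2, the intestinal binding protein that sits in the cytoplasm of absorptive cells, was the highest member by far, with a median of 359 CPM per kb over the 23 libraries and a range from 216 to 561. Slc27a4, the main Slc27 transporter of enterocytes, followed at 37.1 CPM per kb, Dgat2 at 36.6 and Dgat1 at 30.3. The order of these 3 genes was not fixed, since Slc27a4 exceeded Dgat2 in 14 of 23 libraries and Dgat2 exceeded Dgat1 in 15. Slc27a1 came next at 16.2 CPM per kb and was below Dgat1 and above Slc27a2 in every library. Slc27a2 and Fabp5 had medians of 3.25 and 3.24 CPM per kb, and Slc27a2 was the higher in only 12 of 23 libraries. Fabp1 had a median of 0.437 CPM per kb, Cd36 of 0.08 and Fabp4 of 0.0337. Fabp1 was above Cd36 in each of the 23 libraries although the ranges of the 2 genes overlapped, and Cd36 was above Fabp4 in 16.

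**Figure D1:**
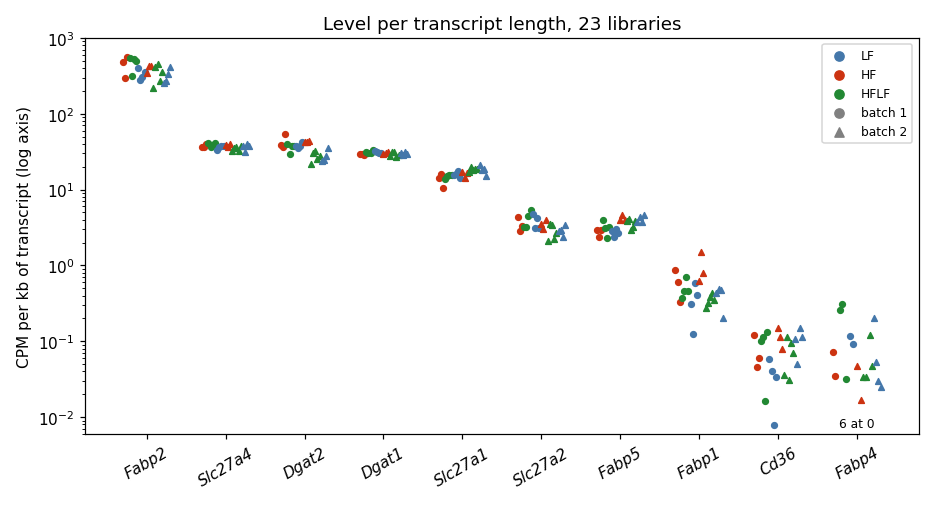
Level of each of the 10 genes as CPM per kb of transcript on a log axis, with 1 point per library coloured by diet and shaped by batch. Fabp2 lies above all other genes, from 216 to 561 CPM per kb. Fabp4, listed as 0 in 6 libraries, has the lowest median, and its range overlaps that of Cd36.

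The spread between libraries also differed between members. Dgat1 was the steadiest, with a coefficient of variation of 4.73% over the 23 libraries, and Slc27a4 followed at 7.49%. Dgat2 and Fabp2, by contrast, varied by 22.3% and 25.7%. In the 3 lowest genes, where a library held at most 32 counts, the variation of 53.8% for Cd36, 56% for Fabp1 and 128% for Fabp4 includes the counting error of few reads.

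Diets were compared within each batch and over both batches with batch as a covariate, by the quasi-likelihood test of edgeR. Calls required a fold above 1.2 and a p under 0.05 after Benjamini-Hochberg adjustment over all genes tested. Between HF and LF mice of batch 1, 0 of 9 tested members were called, where the background was 0% of 14428 genes. At an unadjusted p under 0.05 there were 0 members and 22.2% of all genes. In batch 2, 2 of 9 members were called, both of them higher in HF mice, against a background of 7.44% of genes called in either direction and 3.03% called higher. Over both batches the same 2 members, Dgat2 and Fabp1, were called, against 18.1% of genes in either direction and 9% called higher. Of the 9 tested genes, 7 were well above the filter on low counts in every library, whereas Cd36 and Fabp1 reached its limit in only some libraries. Fabp1 reached the limit of 0.258 CPM in 3 of 3 HF, 2 of 4 LF and 0 of 5 HFLF libraries of batch 2, so it entered the test largely through the group in which it was high.

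**Figure D2:**
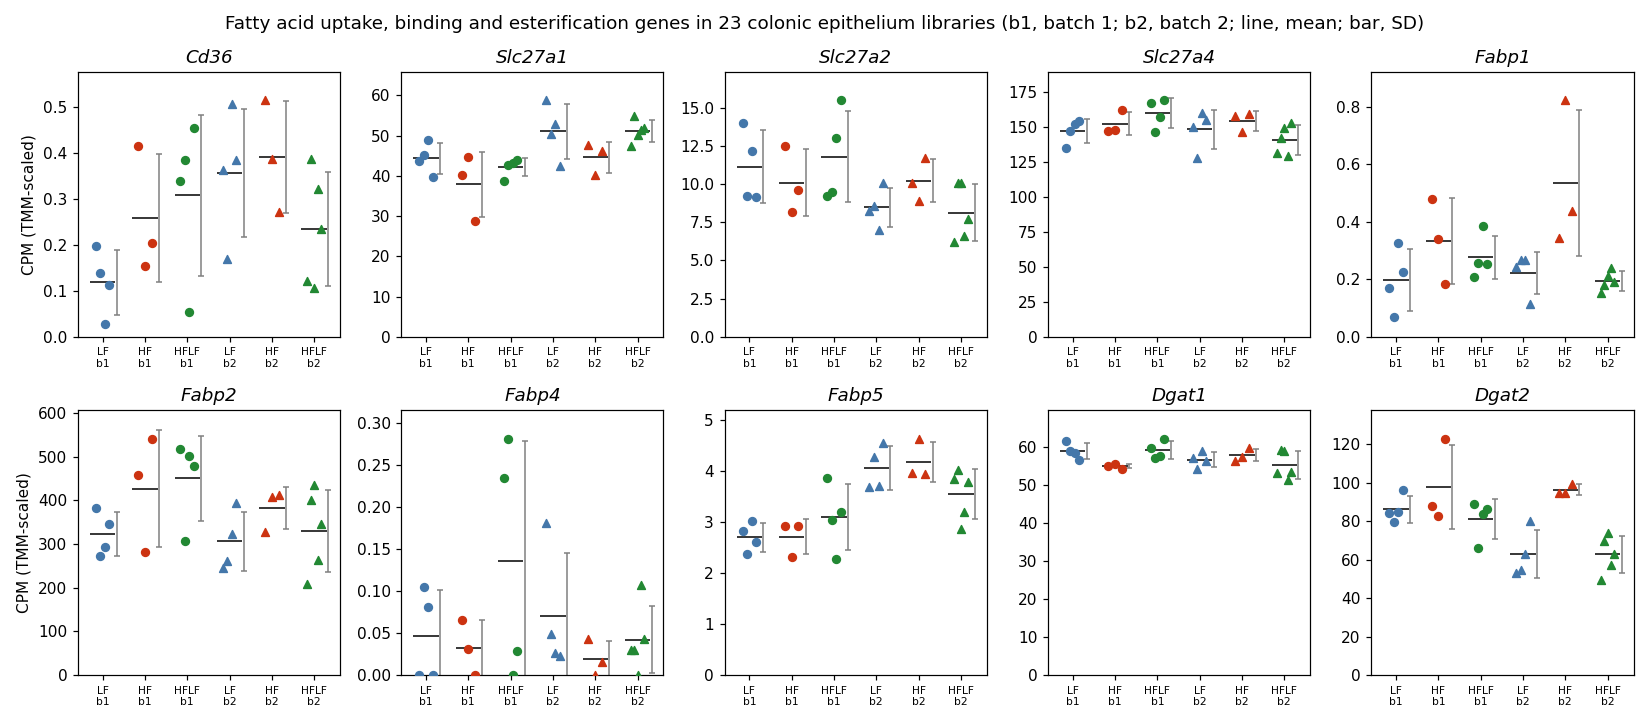
CPM of each gene in each library, by diet and batch, with the mean as a line and the SD as a bar, every axis starting at 0. In the Dgat2 panel the HF libraries of batch 2 lie at 94.8 to 99.5 CPM, above the LF and HFLF libraries of that batch, whereas in batch 1 only HF replicate 3 lies apart, at 123 CPM.

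Among the uptake genes, Cd36 (chr5:17781690-17888959, minus strand, mm10), a scavenger receptor that binds long-chain fatty acids and serves as their main carrier in muscle and fat, was close to the limit of detection. Its counts were 7, 4, 1 and 4 in LF, 19, 5 and 9 in HF and 13, 15, 2 and 16 in HFLF libraries of batch 1. In batch 2 they were 12, 7, 19 and 17 in LF, 24, 15 and 18 in HF and 4, 13, 4, 12 and 11 in HFLF libraries. The groups overlapped in both batches. The log2 fold change of Cd36 between HF and LF was 1.14 (SE 0.66) in batch 1 and 0.12 (SE 0.41) in batch 2, with adjusted p of 0.305 and 0.867. The 95% interval over both batches ran from −0.39 to 1.32. Between HFLF and LF it was 1.35 (SE 0.62, adjusted p = 0.792) in batch 1 and −0.59 (SE 0.41, adjusted p = 1) in batch 2. No difference of Cd36 between diets was detected at these counts.

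Slc27a1 (chr8:71568927-71586708, plus strand), a transporter best known from muscle and fat, had the largest difference between HF and LF over both batches among the uptake genes well above the limit of detection. It was at 43.6, 45.3, 49.0 and 39.7 CPM in LF and 40.1, 44.6 and 28.9 CPM in HF libraries of batch 1. In batch 2 it was at 58.8, 50.3, 52.8 and 42.4 CPM in LF and 47.6, 40.2 and 46.1 CPM in HF libraries. The HF libraries lay lower on average in both batches, but the groups overlapped in each. The log2 fold change was −0.24 (SE 0.13) in batch 1, −0.19 (SE 0.093) in batch 2 and −0.21 (SE 0.079) over both, with adjusted p of 0.286, 0.161 and 0.0472 by edgeR. Over both batches the p passed the threshold but the fold did not, so that Slc27a1 was not called. Without HF batch 1 replicate 3 the log2 fold change was −0.13 and the adjusted p 0.176. Over the 23 libraries Slc27a1 was correlated with the summed endothelial markers (Pearson r = 0.71, on log2 CPM centred in each batch). That sum, much of it Pecam1, ranged from 3.57 to 9.42 CPM in HF and from 8.57 to 11.4 CPM in LF libraries of batch 1. Other measures had r of similar size, among them the colon epithelium (−0.67), fibroblast (0.61) and macrophage (−0.60) sums and the total count (−0.53). The part of any of these cells or of depth in the difference was not tested. In bulk RNA fewer cells of a type cannot be told apart from less RNA per cell.

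Slc27a2 (chr2:126553024-126588243, plus strand), which also activates very long-chain fatty acids, ranged from 6.19 to 15.5 CPM. HF libraries were at 12.5, 8.19 and 9.63 CPM in batch 1 and at 10.1, 8.87 and 11.7 CPM in batch 2, within or close to the LF ranges of 9.13 to 14 and 6.97 to 10.1 CPM. Its log2 fold change between HF and LF was −0.14 (SE 0.22) in batch 1 and 0.28 (SE 0.17) in batch 2, and both 95% intervals included 0.

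Slc27a4 (chr2:29802680-29817522, plus strand) was nearly level over the diets. Its group means lay between 141 and 160 CPM, with SDs of 7.41 to 13.9 CPM. The log2 fold change between HF and LF was 0.05 (SE 0.084) in batch 1 and 0.06 (SE 0.081) in batch 2. Over both batches its 95% interval of −0.07 to 0.18 bounds any difference between HF and LF to less than the fold of 1.2 used for calls.

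Among the binding proteins, Fabp2 (chr3:122895072-122899506, plus strand) had higher means in HF than in LF mice in both batches, without passing the threshold. In batch 1 it was at 383, 272, 294 and 346 CPM in LF, 459, 281 and 542 CPM in HF and 517, 307, 501 and 480 CPM in HFLF libraries. In batch 2 it was at 245, 261, 324 and 394 CPM in LF, 328, 409 and 413 CPM in HF and 208, 400, 435, 263 and 347 CPM in HFLF libraries. The groups overlapped in each batch. Between HF and LF the log2 fold change of Fabp2 was 0.40 (SE 0.21) in batch 1, 0.32 (SE 0.21) in batch 2 and 0.36 (SE 0.17) over both batches, with an adjusted p of 0.101 in the last. Between HFLF and LF it was 0.47 (SE 0.20) in batch 1 and 0.11 (SE 0.19) in batch 2, with adjusted p of 0.792 and 1. Fabp2 followed the summed differentiated colonocyte markers (Car1, Car4, Slc26a3, Aqp8 and 6 others) across libraries, with r = 0.88 over the 23 libraries on log2 CPM centred in each batch. Car1, with a median of 4210 CPM, was the largest part of that sum. Fabp2 was also correlated with the summed colon epithelium markers (r = 0.76) and with the total count (r = 0.58). The sum of these 10 markers ranged from 7450 to 12300 CPM in HF and from 7620 to 9680 CPM in LF libraries of batch 1, and from 7900 to 8900 and 6250 to 9080 CPM in batch 2. The part of mature colonocytes and of depth in the difference was not tested.

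**Figure D3:**
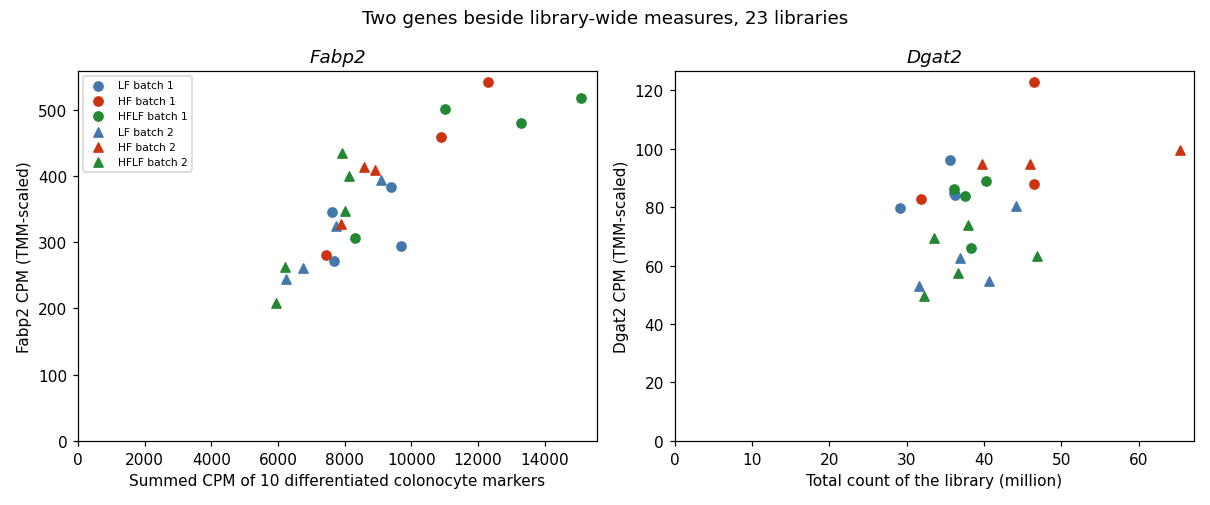
Left, CPM of Fabp2 against the summed CPM of 10 differentiated colonocyte markers, and right, CPM of Dgat2 against the total count of the library, with 1 point per library coloured by diet and shaped by batch. Over the 23 libraries of all diets together, Fabp2 rises with the marker sum (r = 0.88) and Dgat2 is higher in deeper libraries (r = 0.63). Both r are on log2 values centred in each batch, and none was computed within a diet. The deepest library is HF batch 2 replicate 3.

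Fabp1 (chr6:71199888-71205023, plus strand), the liver-type binding protein that is abundant in liver and proximal intestine, was barely present. Its counts in batch 1 were 6, 2, 12 and 8 in LF, 22, 11 and 8 in HF and 8, 10, 14 and 9 in HFLF libraries. In batch 2 they were 8, 11, 10 and 5 in LF, 16, 32 and 29 in HF and 5, 6, 8, 9 and 9 in HFLF libraries. On the CPM scale the HF libraries of batch 2, at 0.343, 0.823 and 0.438, lay above all 9 LF and HFLF libraries of that batch, the highest of which had 0.267 CPM, and in batch 1 the groups overlapped. The log2 fold change between HF and LF was 0.71 (SE 0.47, adjusted p = 0.362) in batch 1, 1.24 (SE 0.36, adjusted p = 0.0466) in batch 2 and 1.02 (SE 0.30, adjusted p = 0.0176) over both batches, by edgeR. Between HFLF and HF of batch 2 it was −1.40 (SE 0.35, adjusted p = 0.0204). Without HF batch 2 replicate 2, the library with 0.823 CPM, the log2 fold change of Fabp1 between HF and LF was 0.85 (adjusted p = 0.24) in batch 2 and 0.77 (adjusted p = 0.0607) over both. Between HFLF and HF of batch 2 it was then −1.01 (adjusted p = 0.137). None of these were called, in fits where 0.103%, 12.6% and 0.0757% of all genes were called, in the same order. Among the 12 fits of batch 2 that each left out 1 library, Fabp1 was called between HF and LF in 3.

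The small intestinal enterocyte markers, which include the ileal binding protein Fabp6, had a correlation of r = 0.14 with Fabp1 over the 23 libraries. Their sum was 199 to 332 CPM in HF, 133 to 209 CPM in LF and 145 to 169 CPM in HFLF libraries of batch 2. Between HF and LF of batch 2, 0 of the 7 tested markers of this list were called, and between HFLF and HF 3 of 7 were called lower, against 5.61% of all genes. Without HF batch 2 replicate 2, 0 of 8 tested markers were called in either comparison, where 0.103% (HF against LF) and 0.0757% (HFLF against HF) of all genes were called. Of this list, Apoa4 and Apoc3 were at 0 in 10 and 15 of the 23 libraries, and all others were at 0 in none. Slc10a2, Sis, Alpi, Fabp6 and Rbp2 had medians of 61.6, 40.6, 35, 22.1 and 11.2 CPM. Those of Gata4, Lct and Apoa1 were 0.651, 0.272 and 0.136 CPM. Whether RNA of small intestinal type took part in the level of Fabp1 was not tested.

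Fabp5 (chr3:10012585-10016610, plus strand), the epidermal binding protein, differed little between diets. It was between 2.28 and 3.86 CPM in batch 1 and between 2.86 and 4.63 CPM in batch 2. Its log2 fold change between HF and LF was 0.00 (SE 0.20) in batch 1 and 0.04 (SE 0.14) in batch 2. Between HFLF and LF of batch 2 it was −0.20 (SE 0.12, adjusted p = 1).

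Fabp4 (chr3:10204343-10208576, minus strand), the binding protein of adipocytes and of capillary endothelium, had 0 counts in 6 of 23 libraries and at most 11 in any. Summed over libraries it had 6 counts in LF, 4 in HF and 21 in HFLF mice of batch 1, and 10, 3 and 8 in batch 2. Of the 21 counts in HFLF mice of batch 1, 9 and 11 came from 2 of the 4 libraries. No test was made of Fabp4. The smooth muscle sum of HFLF libraries in batch 1 ranged from 16.2 to 76.1 CPM, against 14.9 to 29.3 CPM in LF, and the fibroblast sum from 34 to 82.2 CPM against 35 to 54.6 CPM. The part of these cells in the Fabp4 counts was not tested.

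Of the esterification enzymes, Dgat2 (chr7:99153663-99182713, minus strand), which makes triglyceride at the endoplasmic reticulum and the droplet surface, rose with the high-fat diet in batch 2. LF libraries of that batch were at 53.1, 54.8, 62.7 and 80.3 CPM, HF libraries at 94.8, 94.9 and 99.5 CPM, and HFLF libraries at 49.6, 69.5, 73.9, 57.4 and 63.2 CPM. The 3 HF libraries lay above all 9 others. Dgat2 and Fabp1 were the 2 members whose HF and LF libraries did not overlap in batch 2, which held for 27.3% of the genes tested, and their HFLF and HF libraries did not overlap either, which held for 27%. Between HF and LF, Dgat2 had a log2 fold change of 0.62 (SE 0.14, adjusted p = 0.028 by edgeR), a 1.54-fold difference. Between HFLF and HF it was −0.62 (SE 0.13, adjusted p = 0.0138). The HFLF and LF means were both 62.7 CPM, with a 95% interval of −0.26 to 0.26 for their log2 difference. Without HF batch 2 replicate 2, the log2 fold change of Dgat2 between HF and LF was 0.64, as large as with it, and the adjusted p was 0.134, a fit in which 0.103% of all genes were called. Between HFLF and HF, the log2 fold change of Dgat2 in that fit was −0.64 and the adjusted p 0.095, so that neither call remained.

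In batch 1 the same comparison of Dgat2 rested on a single library. LF libraries were at 84.3, 79.6, 85.0 and 96.0 CPM, HF libraries at 87.9, 82.8 and 123 CPM, and HFLF libraries at 89.1, 66.1, 83.8 and 86.1 CPM. Of the HF libraries only replicate 3 lay above the LF range. Dgat2 had a log2 fold change of 0.18 (SE 0.14, adjusted p = 0.432), and without HF batch 1 replicate 3 it was −0.01 (adjusted p = 0.967). The difference of 0.44 (SE 0.21) between the log2 fold changes of Dgat2 in the 2 batches had an unadjusted p of 0.0487 and an adjusted p of 0.759 by edgeR. Over both batches Dgat2 was higher in HF than in LF mice (log2 fold change 0.41, SE 0.11, adjusted p = 0.0123) and lower in HFLF than in HF mice (log2 fold change −0.45, SE 0.11, adjusted p = 0.0141). With both libraries that stood apart left out, these values were 0.34 (adjusted p = 0.112) and −0.39 (adjusted p = 0.147), where 1.02% and 0.0961% of all genes were called.

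Several library-wide measures moved with Dgat2. HF libraries of batch 2 held 39781396 to 65320947 counts and LF libraries 31607019 to 44070889, and over the 23 libraries Dgat2 was correlated with the total count (r = 0.63). It was also correlated with the colon epithelium (r = 0.71), small intestinal (r = 0.67) and differentiated colonocyte (r = 0.56) markers. The correlation was inverse with the smooth muscle (r = −0.63), fibroblast (r = −0.61) and endothelial (r = −0.50) markers. The colon epithelium sum was 15300 to 16100 CPM in HF and 13000 to 15800 CPM in LF libraries of batch 2. The smooth muscle sum was 16.5 to 21.5 CPM in HF and 19.6 to 53.7 CPM in LF libraries of batch 2, and Smtn, with a median of 15 CPM over the 23 libraries, makes up much of it. Over the 10 smooth muscle markers the median log2 fold change between HF and LF of batch 2 was −2.26. Of these markers 1 was called lower and 0 higher, where 7.44% of all genes were called in either direction. At an unadjusted p under 0.05 were 8 of the markers and 33.1% of all genes. Without HF batch 2 replicate 2 the median of the markers was −1.82. The part of depth and of these cells in the Dgat2 difference was not tested.

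Dgat1 (chr15:76502015-76511818, minus strand), the other enzyme of the same step, was nearly constant. HF libraries of batch 1 were at 55.0, 55.5 and 54.3 CPM and LF libraries at 61.5, 59.0, 58.3 and 56.5 CPM. These groups did not overlap, which held for 13.7% of all genes in that comparison. The HFLF libraries, from 57.2 to 62.2 CPM, also lay above the HF libraries, which held for 7.94% of genes between HFLF and HF. Dgat1 differed between HF and LF by a log2 fold change of only −0.10 (SE 0.069, adjusted p = 0.378). In batch 2, HF libraries were at 56.4, 57.4 and 59.6 CPM, LF libraries at 57.2, 54.3, 58.8 and 56.3 CPM, and the log2 fold change of Dgat1 was 0.03 (SE 0.061). Over both batches its 95% interval between HF and LF was −0.12 to 0.06.

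**Figure D4:**
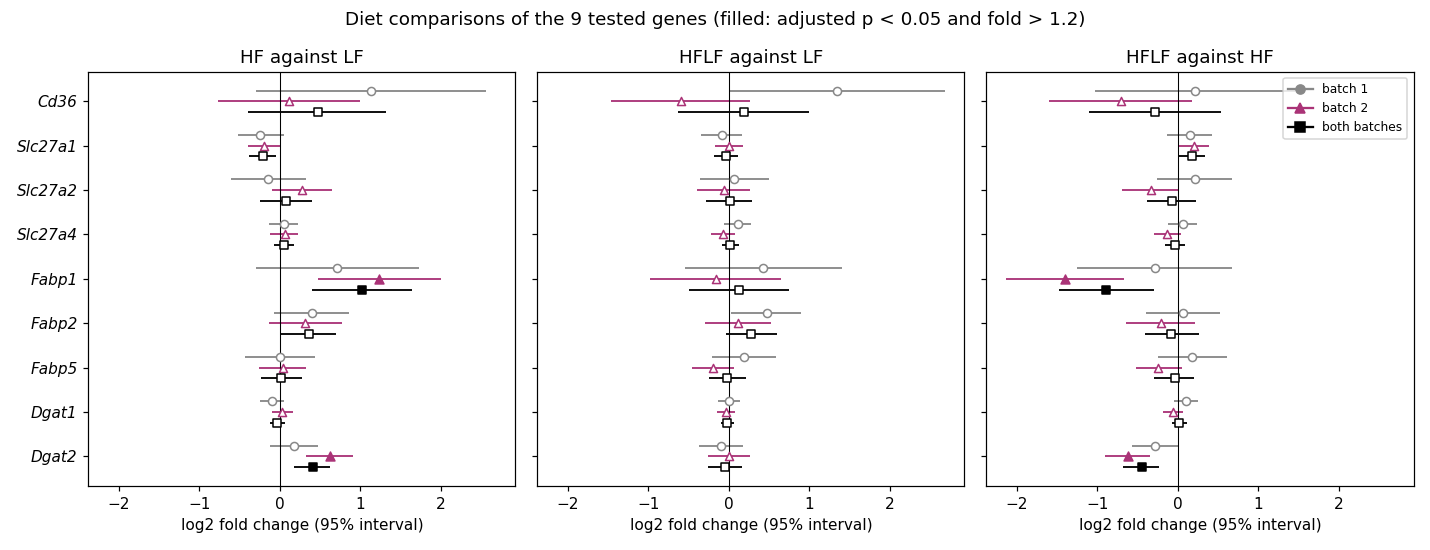
Log2 fold change of the 9 tested genes with its 95% interval for the 3 diet comparisons, in batch 1 (circles), batch 2 (triangles) and both batches (squares), filled where called. Filled symbols occur only for Fabp1 and Dgat2, above 0 for HF against LF and below 0 for HFLF against HF.

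The HFLF diet asks whether the levels after a switch back to low fat resemble those of mice that never ate high fat. Between HFLF and LF, 0 of 9 tested members were called by edgeR in batch 1, batch 2 or both, where 0%, 0.00696% and 0% of all genes were called. At an unadjusted p under 0.05 there were 2 members in batch 1, Fabp2 and Cd36, and 0 in batch 2 and over both, where 5.29%, 4.65% and 4.11% of all genes had such a p. Cd36 reached the filter limit of batch 1 in 0 of 4 LF, 1 of 3 HF and 3 of 4 HFLF libraries, so it entered that test largely through the group in which it was high. DESeq2 and limma also called 0 members. Over both batches the 95% intervals of the log2 difference were −0.26 to 0.16 for Dgat2, −0.50 to 0.75 for Fabp1 and −0.03 to 0.60 for Fabp2. These intervals leave room for a difference in Fabp1 and Fabp2 that the numbers of libraries could not resolve. Between HFLF and HF, 0 of 9 members were called in batch 1 against 0.00693% of genes. In batch 2 and over both batches, 2 of 9 members, Fabp1 and Dgat2, were called lower, against 5.61% and 4.9% of genes called lower and 14.5% and 10.3% called in either direction. Fabp1 reached the filter limit in 3 of 3 HF and 0 of 5 HFLF libraries of batch 2, and in 5 of 6 and 1 of 9 over both. It thus entered this comparison largely through the group in which it was high, and its call adds little to the count. The HF libraries enter this comparison and that of HF with LF, so that the opposite signs are not independent of each other.

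Differences between the batches in the response to diet were tested as an interaction. For HF against LF and for HFLF against LF, 0 of 14385 genes passed, members included. The largest among the members was that of Cd36 for HFLF against LF, −1.96 (SE 0.75, unadjusted p = 0.0156, adjusted p = 0.632), a gene of at most 24 counts per library.

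Of 26 other genes of uptake, activation and binding, 17 were expressed enough to be tested. In batch 1 none of the 17 were called in any comparison by edgeR, with 7 at an unadjusted p under 0.05 between HF and LF, where 22.2% of all genes had such a p. Between HF and LF of batch 2, 2 rose and 0 fell, where 3.03% of all genes were called higher, with a median log2 fold change of 0.17 for the 17 genes against −0.01 for all genes. These were Scp2, a carrier of lipids and sterols into peroxisomes, at 199 against 157 CPM (log2 fold change 0.34), and Lipa, the acid lipase of lysosomes, at 66.8 against 47.1 CPM (0.50). Over both batches 5 rose and 0 fell, where 9% of all genes were called higher. Besides Scp2 (0.31) and Lipa (0.37), these were Dbi, the acyl-CoA binding protein (0.31), Acsl5, an acyl-CoA synthetase of the intestine (0.28), and Scarb1, a receptor for lipoprotein cholesterol (0.30), of which Acsl5 and Scarb1 are named in view of their values. Fabp6, the bile acid binding protein of the ileum, was at 80.5 CPM in HF and 36 CPM in LF mice in batch 2, and its log2 fold change was 1.16 (SE 0.38, adjusted p = 0.0634).

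Between HFLF and HF of batch 2, 0 of the 17 genes rose and 5 fell, where 5.61% of all genes were called lower. These were Fabp6 (log2 fold change −1.49, 28.7 against 80.5 CPM), Lipa (−0.41), Scarb1 (−0.32), Dbi (−0.31) and Scp2 (−0.31). Over both batches 1 fell, Scarb1 (−0.34, adjusted p = 0.000801 by edgeR). Without HF batch 2 replicate 2, 0 of the 17 genes were called in batch 2 in either comparison. In these fits 0.103% of all genes were called for HF against LF and 0.0757% for HFLF against HF. Without both libraries that stood apart, Scarb1 alone was called over both batches, higher in HF than in LF and lower in HFLF than in HF. Of all genes, 1.02% and 0.0961% were called in these comparisons.

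Of 38 genes of triglyceride synthesis, lipid droplets and chylomicrons, 32 were tested. In batch 1, 0 were called by edgeR in any comparison, with 8 at an unadjusted p under 0.05 between HF and LF, near the 22.2% of all genes. Between HF and LF of batch 2, 2 rose and 4 fell, where 7.44% of all genes were called in either direction. The risen genes were Mogat2, the monoacylglycerol acyltransferase that supplies diglyceride to the DGAT enzymes in the gut, at 4.36 against 2.83 CPM (log2 fold change 0.62), and Mgll, a monoglyceride lipase, at 39.7 against 27.8 CPM (0.52). The fallen genes were Plin4, a droplet coat protein (−1.46), Lpin1, a phosphatidate phosphatase (−0.87), Lipe, the hormone-sensitive lipase (−0.40), and Gpam, the acyltransferase of the first step of synthesis (−0.34). Plin4 was low, at 0.202 against 0.542 CPM.

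Over both batches 5 of these 32 genes rose and 3 fell between HF and LF, where 18.1% of all genes were called. Mgll (0.63), Mogat2 (0.57) and Sar1b, a GTPase of chylomicron transport (0.33), had the largest rises, and Agpat5 (0.32) and Agpat2 (0.30), acyltransferases of the phosphatidate step, are named in view of their values. The fallen genes were Plin4 (−1.14), Lipe (−0.45) and Gpam (−0.31). The median of the list was 0.05, against −0.01 for all genes. Between HFLF and HF of batch 2, 1 rose (Lpin1, 0.87) and 4 fell, where 14.5% of all genes were called, namely Mogat2 (−0.77), Mgll (−0.74), Sar1b (−0.34) and Agpat2 (−0.33). Over both batches 3 rose, Plin4 (1.32), Lipe (0.34) and Pnpla2, the first lipase of triglyceride breakdown (0.27), and 3 fell, where 10.3% of all genes were called. The latter were Mgll (−0.67), Mogat2 (−0.50) and Agpat2 (−0.31). Between HFLF and LF, 0 genes of either list were called by edgeR in batch 1, batch 2 or both, with at most 2 at an unadjusted p under 0.05. Without HF batch 2 replicate 2, 0 of the 32 genes were called in batch 2, where 0.103% (HF against LF) and 0.0757% (HFLF against HF) of all genes were called. Without both libraries that stood apart 0 were called over both, where these shares were 1.02% and 0.0961%.

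**Figure D5:**
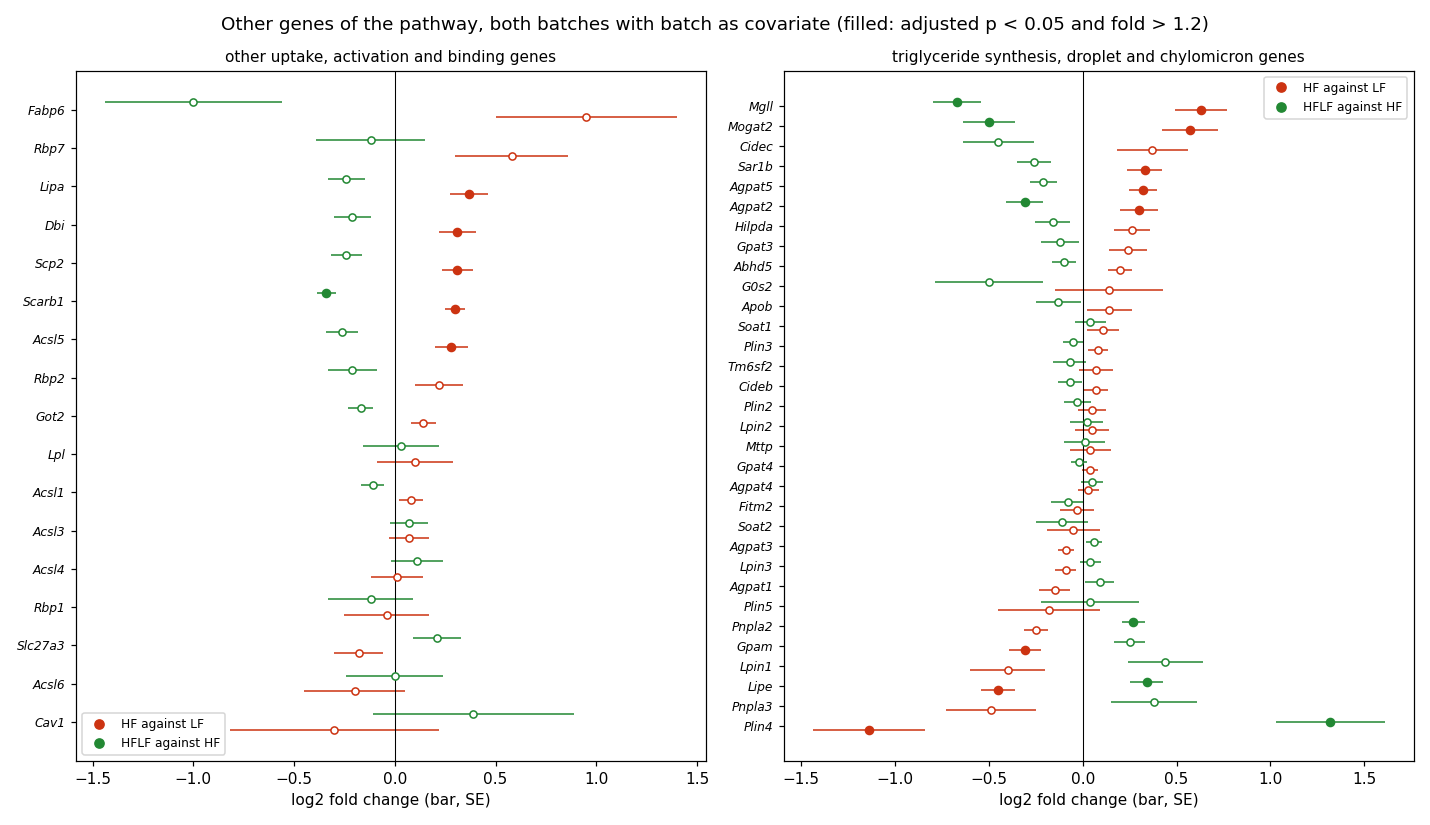
Log2 fold changes over both batches, with SE as bars, of the 17 tested genes of uptake, activation and binding (left) and the 32 of triglyceride synthesis, droplets and chylomicrons (right), ordered by HF against LF (red), with HFLF against HF (green), filled where called. Mgll (0.63) and Mogat2 (0.57) have the largest called values above 0 for HF against LF and Plin4 (−1.14) the largest below. The comparisons share the HF libraries.

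The members did not vary as a block. Over the 23 libraries, on log2 CPM centred in each batch, Fabp2 and Dgat2 had r = 0.68, Slc27a2 and Dgat1 0.62, Fabp2 and Slc27a4 0.59, and Slc27a1 and Dgat2 −0.65. Among all tested genes, Dgat2 was most like Creb3l3 (r = 0.903), Slc35b1 (0.887) and Alpi (0.885). Creb3l3 encodes a transcription factor of the intestine and liver and Alpi an intestinal alkaline phosphatase. Alpi was itself called higher in HF than in LF mice over both batches, at 49.2 against 30.4 CPM. It was not called without both libraries that stood apart, when 0 small intestinal markers and 1.02% of all genes were called. The genes most like Fabp2 were Cyp2c65 (0.928) and Ethe1 (0.914). Slc27a4 was most like Cidec, a droplet fusion protein (0.852), Clca6 (0.821) and Gcnt3 (0.76). Slc27a1 was most like Dqx1 (0.895), Acrbp (0.895) and 2310067B10Rik (0.892).

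The remaining members had weaker partners. Slc27a2 was most like Fastkd3 (0.807), Mpst (0.758) and Mboat2 (0.747), and Dgat1 was most like Klc4 (0.767), Mpst (0.725) and Fth1 (0.721). Fabp5 was most like Rab3b (0.765) and the mitotic genes Cdca8 (0.72) and Aurka (0.714). The leading genes for Fabp1 (Srpx2, 5033404E19Rik and Chodl), Cd36 (Thap1, Dusp3 and Pf4) and Fabp4 (Col18a1, Zfp775 and Axl) had r between 0.681 and 0.846, but the counts of these members were too few for such values to be read. All of these correlations share libraries, depth and diet groups, and describe these 23 libraries only.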

How the data were processed

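RNA of the colonic epithelium was depleted of ribosomal RNA and sequenced from stranded libraries. Per the labels and the methods of the study, the authors trimmed adapters with cutadapt 1.2.1, mapped reads to mm10 with STAR 2.5 and counted them per gene with featureCounts 1.5.0-p1. The deposited values are raw counts per gene locus, not normalized, and how the counting treated strand and shared reads is not given in the sources used here. Library totals were between 29189922 and 65320947 counts, and floors cover counting error only.

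Counts were analysed with edgeR 4.0.16 in R 4.3.3 (TMM factors, filterByExpr, glmQLFit and glmQLFTest), with the 3 diets in one fit per batch, or over both batches with batch as a covariate. This left 14428, 14377 and 14385 genes. p-values were adjusted over all of them, and genes were called at an adjusted p under 0.05 and a fold above 1.2, the thresholds of the study, which used DESeq2. Printed CPM divide counts by the library total times its TMM factor over the 23 libraries. Levels per kb use the APPRIS principal transcript of GENCODE. All 23 libraries differed by more than sampling noise (mean chi-square per gene at least 11.4 for any of 253 pairs). Since the labels do not say that samples are separate animals, p-values measure only the spread between these samples, and a mouse sampled in both batches would enter the joint fits repeatedly. The procedures were tested on simulated data.

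The text names the 10 members, up to 3 called genes per direction from each pathway list with the largest change, and the 3 genes most like each member by Pearson r, of which 1 is not reported here. Apart from the members, genes named in view of their values are said to be so. Lists of cell type markers served as checks of the labelled tissue. The members and lists were chosen with earlier results of these data known. Alternatives were DESeq2 1.42.0, RLE size factors, no filter, limma 3.58.1 voom with sample weights, a replicate block, samples of the same diet and number summed over batches, and leaving out each library. A fit without both libraries that stood apart was added after seeing the data.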

Additional observations from a re-analysis of the deposited data

Results flagged for a closer look

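In 40 checks of a gene in a group of 4 or 5 libraries, 2 values stood far from the rest of their group by Dixon's ratio of the gap to the range, and chance alone would give about 1 in 20. Fabp1 in LF batch 2 replicate 4 was at 0.113 CPM, a library with 5 counts, while the other 3 libraries lay between 0.242 and 0.267 CPM. Fabp4 in LF batch 2 replicate 1 was at 0.181 CPM, a library with 6 counts, while the others lay between 0.0226 and 0.0485 CPM. Both genes have so few counts that these gaps lie near the counting error.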

How the results depend on the processing

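Of the members, Dgat2 stayed called over both batches in each of the 23 fits that left out 1 library, for HF against LF (log2 fold change 0.37 to 0.48, adjusted p 0.0029 to 0.0365) and for HFLF against HF (−0.53 to −0.42, 0.00415 to 0.0412). In batch 2 it was called in 7 of 12 such fits for HF against LF (adjusted p 0.00598 to 0.134) and was lost without LF replicates 1, 2 or 3 or HF replicates 2 or 3, with a log2 fold change of at least 0.55 throughout. Fabp1 was called in 3 of 12 for the same comparison (0.85 to 1.47), in 22 of 23 over both batches (lost without HF batch 2 replicate 2) and in 14 of 23 for HFLF against HF over both. No member changed sign under an alternative while called. The count of members called between HF and LF of batch 1 (0) was 1 with limma and sample weights (Fabp1, adjusted p = 0.0372). For HF against LF of batch 2 the count (2) was 1 with DESeq2, no filter or the replicate block (Fabp1 adjusted p = 0.0543 and 0.0538 in the last pair) and 0 to 2 with a library left out. For HFLF against HF it was 1 (main 2) with DESeq2 in batch 2 and over both, 1 with the replicate block over both (Fabp1, adjusted p = 0.101), 0 to 2 with a library left out in batch 2 and 1 to 2 over both. DESeq2 gave Fabp1 no adjusted p in these fits. Over both batches, HF against LF gave 1 to 4 members with a library left out (main 2). Fabp2 and Slc27a1 were called without HF batch 1 replicate 2, and Fabp2 with the replicate block (adjusted p = 0.0422), with summed samples (0.0434) and without LF batch 2 replicate 4. Slc27a1 was called in batch 2 without LF replicate 4 (−0.27, adjusted p = 0.0294) and Slc27a2 for HFLF against HF of batch 2 with limma (−0.44, adjusted p = 0.0332). Without both libraries that stood apart, 0 members were called over both batches for HF against LF and 0 for HFLF against HF, where 1.02% and 0.0961% of all genes were called.

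Counts of genes called moved more. For HF against LF of batch 1 (0) they were 479 with DESeq2, 1 with RLE, 2 with no filter, 2422 with limma, 92 with the replicate block and 0 to 1352 with a library left out, the most without HF replicate 2. For HFLF against LF of batch 1 (0) they were 4 with DESeq2 and 0 to 6 with a library left out. For HFLF against HF of batch 1 (1) they were 14 with DESeq2, 2 with no filter, 3 with limma, 0 with the block and 0 to 3 with a library left out. For HF against LF of batch 2 (1069) they were 1853 with DESeq2, 1991 with limma, 2080 with the block and 15 to 2560 with a library left out, the fewest without HF replicate 2 and the most without LF replicate 4. For HFLF against LF of batch 2 (1) they were 15 with DESeq2, 0 with limma or the block and 0 to 2 with a library left out. For HFLF against HF of batch 2 (2084) they were 11 to 2778 with a library left out. Over both batches, HF against LF (2605) gave 1591 to 3703, HFLF against HF (1488) 501 to 2669 and HFLF against LF (0) 0 to 3 with a library left out, and HFLF against LF gave 6 with DESeq2, 3 with limma, 1 with the block and 1 with summed samples. Without both libraries that stood apart the counts over both batches were 149 for HF against LF, 14 for HFLF against HF and 3 for HFLF against LF. The cause of these moves was not tested, other than that fits with a library left out hold fewer samples.

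Deviations of same-numbered samples of different diets had r from −0.35 to 0.36 in batch 1 and −0.12 to 0.38 in batch 2. The medians were 0.055 and 0.06, against 0 and −0.03 for samples of unlike number. Above r = 0.1 were 4 of 10 same-numbered pairs in each batch, against 7 of 30 and 7 of 37 other pairs. Same-numbered samples of 1 diet in the 2 batches had r from −0.31 to 0.22. No clear pairing was seen, so the replicate block is given only as an alternative. Depth limits Fabp4, Cd36 and Fabp1, whose libraries held at most 11, 24 and 32 counts.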
